A study of Homo sapiens with 8 samples.

Results

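The genes of the Hippo kinase core and its adaptors were examined for binding of TAZ, the co-activator that this kinase core restrains. The 10 genes were LATS1, LATS2, STK3, STK4, SAV1, MOB1A, MOB1B, NF2, MAP4K4 and TAOK1, out of 20033 protein-coding genes of the annotation. A peak was assigned to a gene when its summit, the position of highest signal, lay within 100 kb of any annotated transcription start site (TSS) of that gene. Peaks within 3 kb of a TSS of the gene are called promoter peaks, peaks within 3 kb of a TSS of some other gene are counted apart, and all remaining ones are called distal. The lists without doxycycline (Dox) and after 24, 48 and 72 h with it held 6, 7, 27 and 88 such peaks, out of 2431, 2469, 11767 and 38667 in all. Overlapping peaks of the 4 lists formed 89 merged regions near these genes, out of 39503 in the genome.

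The cells were MCF10A, a non-transformed human mammary epithelial line, transduced to express TAZ-4SA, a constitutively active TAZ, under the control of Dox. All groups carried this construct, and they differed in the time with 0.05 µg/ml Dox: none, 24, 48 or 72 h. ChIP-seq, the sequencing of DNA that an antibody recovers with a bound protein, gave 1 library from a TAZ antibody and 1 from IgG per condition, 8 in all. No source used here says that the antibody separates the induced TAZ from the cells' own. Each list rests on 1 TAZ library, so times are compared as single libraries, without a replicate check and without a test.

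In the Hippo pathway the MST kinases, encoded by STK3 and STK4, work with the scaffold SAV1 and activate the LATS kinases, which act with their co-activators MOB1A and MOB1B. LATS kinases phosphorylate TAZ and its relative YAP, which keeps them out of the nucleus or leads to their degradation. NF2 encodes merlin, a membrane adaptor that brings LATS kinases to the cell cortex, while MAP4K4 and TAOK1 encode kinases that can act beside or above the MST kinases. LATS2 is known as a target gene of YAP and TAZ in several cell types, and is often described as part of a negative feedback. TAZ has no DNA-binding domain and reaches DNA mainly through TEAD factors.

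Fold enrichment is the authors' value of the ChIP signal at a summit over its local background. The number of fragments behind it was solved from the fold enrichment and the p-value together, and the 95% Poisson interval of that number is given as the interval of the fold enrichment. These intervals cover only the counting error of the fragments at the summit. The background was taken as exact, so they may be too narrow, also where intervals are said not to overlap. At the lowest background of each list, which was 1.49, 1.42, 2.84 and 2.01 fragments without Dox and at 24, 48 and 72 h, a peak needed at least 9, 9, 12 and 9 fragments to be called. At that background this was a fold enrichment of 4.01, 4.14, 3.38 and 3.33, and where the background was higher, weaker values could be called. Promoters of 8 of 9 basal mammary genes had a peak at 72 h, against 1 of 5 liver genes, 0 of 5 blood genes, 2 of 5 neuron genes and 58.4% of all protein-coding genes, although a TAZ peak does not measure expression.

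The sequences of 6 member sites are shown first, a selection made after their values were seen. The LATS2 and STK4 sites were called in all 4 lists, the SAV1 site in the lists of 24, 48 and 72 h, and the NF2 and MAP4K4 sites held a TEAD word near the summit; other sites of these kinds are not shown. Capitals mark the TEAD word ACATTCC or GCATTCC, or its reverse complement, and in the SAV1 sequence the 6-letter core CATTCC alone. The LATS2 stretch runs in the direction of the gene, chr13:21061557-21061656 on the minus strand, from 70 bases before to 30 bases after the TSS, and was taken from RefSeq (GRCh38.p14). The others are hg38 sequence of the plus strand. MAP4K4 chr2:101824069-101824129 (labelled internal promoter) and chr2:101827448-101827508 (labelled intron) both lay in introns. Their 72 h summits were 1220 and 2076 bp from an internal TSS, so both count as promoter peaks. NF2 chr22:29626659-29626719 lay in an intron, SAV1 chr14:50675771-50675831 upstream of the gene and STK4 chr20:45012805-45012865 in an intron. The STK4 stretch was centred on its TEAD word and held no summit of any list.
LATS2 promoter: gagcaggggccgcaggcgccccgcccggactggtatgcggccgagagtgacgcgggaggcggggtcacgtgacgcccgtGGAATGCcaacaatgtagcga
MAP4K4 internal promoter: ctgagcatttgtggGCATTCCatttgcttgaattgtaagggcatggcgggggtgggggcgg
MAP4K4 intron: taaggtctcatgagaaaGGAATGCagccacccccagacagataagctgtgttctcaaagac
NF2 intron: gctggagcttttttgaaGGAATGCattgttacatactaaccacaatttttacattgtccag
SAV1 upstream: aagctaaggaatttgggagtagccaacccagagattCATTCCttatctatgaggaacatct
STK4 intron: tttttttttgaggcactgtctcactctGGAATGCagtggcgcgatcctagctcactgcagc

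LATS2 was the only member with a promoter peak in all 4 lists, and every member had one at 72 h. Promoter peaks were found at 2 members without Dox (LATS2 and STK3), 1 at 24 h (LATS2), 3 at 48 h (LATS2, STK4 and MAP4K4) and 10 at 72 h. Of all protein-coding genes, 9.4%, 2.55%, 9.09% and 58.4% had a promoter peak at these 4 times. With the main TSS of each gene alone, the counts were 2, 1, 1 and 10, LATS2 being the one left at 48 h, against 8.13%, 1.39%, 4.71% and 53.3% of all genes. The promoters of LATS1, SAV1, MOB1A, MOB1B, NF2 and TAOK1 were bound at 72 h alone, 6 of 10 members against 42.2% of all genes. Of the 11700 genes with a promoter peak at 72 h, 8450 had it at 72 h alone, so the members were not unusually late by this count. A promoter peak in all 4 lists was found at 1 of 10 members and at 0.869% of all genes.

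At LATS1, STK4, SAV1, MOB1A and NF2 the first distal peak was called at an earlier time than the first promoter peak, which was so at 21.8% of all genes. Among genes with both kinds of peak in any list, these were 5 of 9 members, against 47.1% of 9268 genes. Distal peaks within 100 kb lay near 2 members without Dox (STK4 and NF2), 4 at 24 h (STK3, STK4, SAV1 and NF2), 8 at 48 h and 9 at 72 h. Among all genes, the share with such a peak was 7.47%, 12%, 41.4% and 69.5% at the 4 times. MOB1B and TAOK1 were the members without a distal peak at 48 h, and TAOK1 had none at 72 h either. Members had a median of 6.5 annotated TSSs, against 5 for all genes, and a median window of 231 kb, against 209 kb, so more sequence was searched per member. With the main TSS alone, the distal counts were again 2, 4, 8 and 9, against 6.44%, 10%, 37.2% and 65.5% of all genes.

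**Figure D1:**
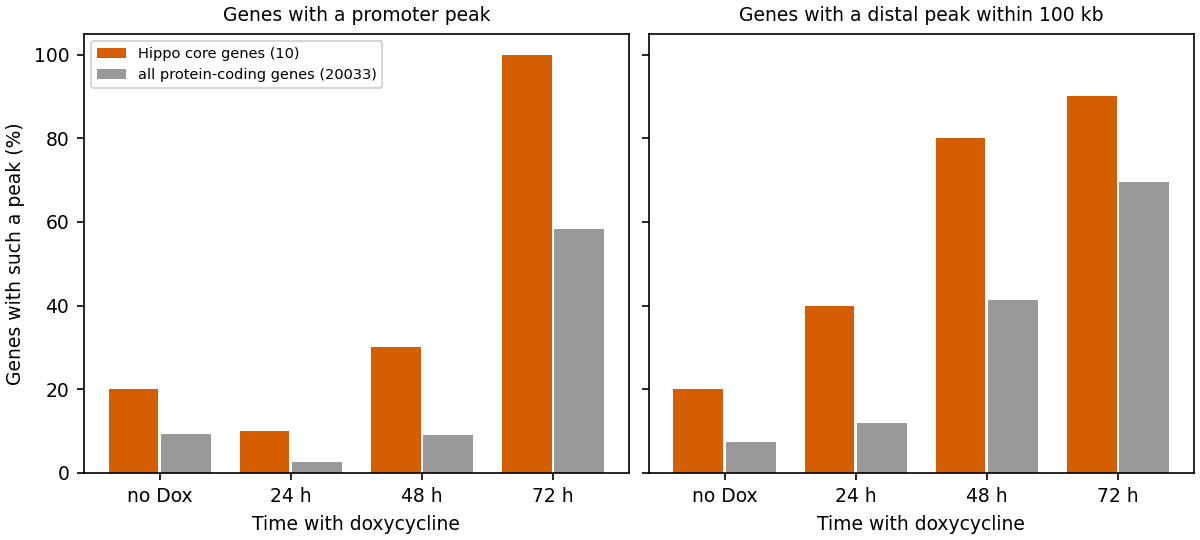
Share of genes (%) with a promoter peak (left) and with a distal peak within 100 kb (right) at each time, for the 10 Hippo core genes (orange) and all 20033 protein-coding genes (grey). At 72 h all 10 members had a promoter peak, against 58.4% of all genes, and the 4 members with a distal peak at 24 h stand against 12%.

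**Figure D2:**
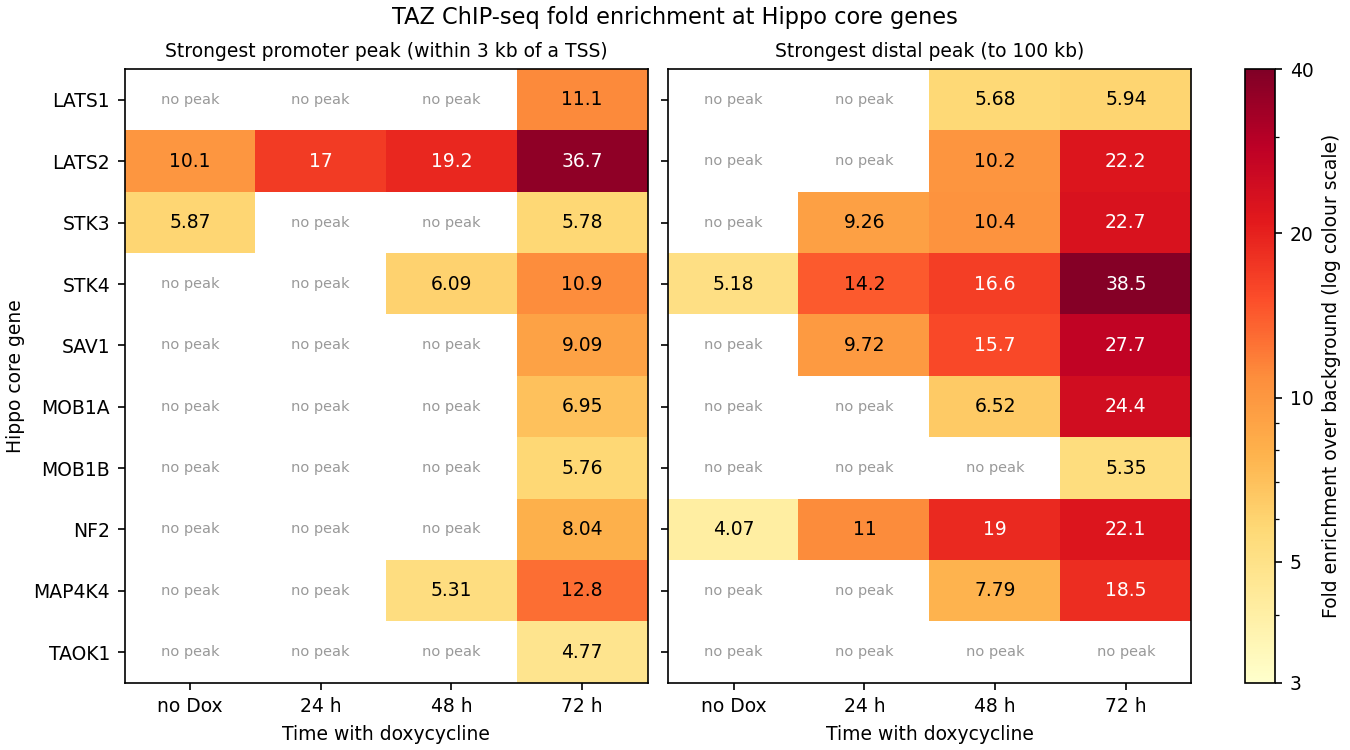
Fold enrichment of the strongest promoter peak (left) and the strongest distal peak (right) of each Hippo core gene (rows) at each time (columns), on a logarithmic colour scale, with the value in each cell and "no peak" where none was called. LATS2 is filled in all 4 promoter columns, and the highest values at 72 h are 36.7 at the LATS2 promoter and 38.5 at a distal site of STK4.

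LATS2, which encodes a kinase that phosphorylates TAZ, had the strongest promoter peak of the members in each list. Its fold enrichment was 10.1 without Dox (interval 7.08 to 14) and 17 (12.7 to 22.3), 19.2 (15.6 to 23.4) and 36.7 (32.9 to 40.9) after 24, 48 and 72 h. These values rest on 34, 50, 97 and 329 fragments. The 72 h interval lay above the others, while those of successive earlier times overlapped. Among genes with a promoter peak, 76.1%, 95.3%, 96.6% and 98.9% had a weaker one at the 4 times. The 72 h value was 1.91 times that at 48 h, a ratio higher than 51.2% of the sites shared by the 2 lists, and thus near the middle of them. Among all peaks of a list it ranked 367th, 88th, 363rd and 509th by fold enrichment.

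The 4 summits at the LATS2 promoter fell at positions 21061552, 21061577, 21061565 and 21061577 of chromosome 13, next to the TSS at 21061586. The TEAD word in the printed sequence occupies 21061571 to 21061577 and starts at base 10 of the first exon, in the 5′ UTR. It was the only TEAD word in the 72 h interval of 2482 bp. The interval measured 795 bp without Dox, 455 bp at 24 h and 741 bp at 48 h.

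Further LATS2 sites appeared at 48 and 72 h. Positions are given in kb from the main TSS in the direction of transcription, with negative values upstream. At -8.09 kb the fold enrichment was 10.2 at 48 h and 22.2 at 72 h, at -9.67 kb it was 7.71 and 16.9, and at -18.4 kb it was 5.82 and 16.5. At each of these 3 intergenic sites the 72 h interval lay above that of 48 h (17.7 to 27.6 against 7.74 to 13.1 at -8.09 kb). None of the 3 had a peak without Dox or at 24 h. At 72 h the gene had 9 distal peaks, 3 of them in its introns, with fold enrichments of 6.29, 7.76 and 9.28 at 27.5, 44.1 and 63.7 kb. More peaks lay within 100 kb of LATS2 than of 86% of all genes at 72 h.

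LATS1, the paralogous kinase gene on chromosome 6, had no peak without Dox or at 24 h. A single intronic site at 21 kb (chr6:149696830-149697926) had a fold enrichment of 5.68 (3.78 to 8.22) at 48 h and 5.94 (3.69 to 9.11) at 72 h, with overlapping intervals. Its promoter was bound at 72 h alone, with a fold enrichment of 11.1 (8.05 to 14.9) from 42 fragments and a summit 6 bp from the nearest TSS. LATS1 had 4 peaks at 72 h and LATS2 had 11. The other 2 LATS1 peaks lay at the promoters of PCMT1, with 11.6, and KATNA1, with 6.01, which flank the gene.

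**Figure D3:**
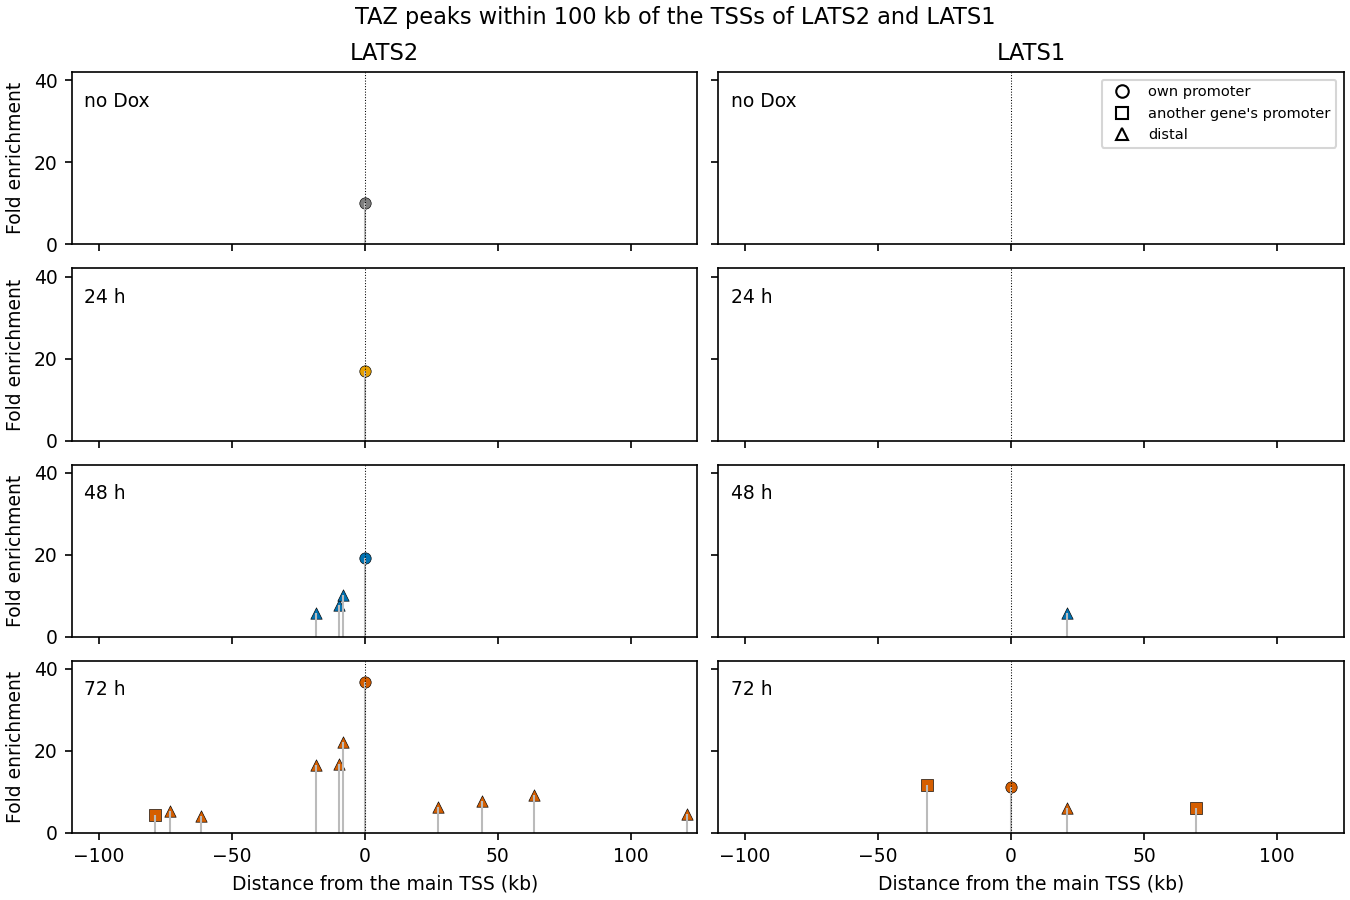
Fold enrichment of TAZ peaks (vertical axes) against distance from the main TSS in kb at LATS2 (left) and LATS1 (right), without Dox and at 24, 48 and 72 h from top to bottom. Circles are peaks at the gene's own promoter, squares at another gene's promoter and triangles are distal. The LATS2 promoter peak stands in every panel, with 10.1 without Dox and 36.7 at 72 h, and the LATS1 panels are empty before 48 h.

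Of the MST kinase genes, STK4 (MST1) carried the strongest distal site of all members in each list but that of 48 h, where an NF2 site had 19. The intronic STK4 site at 46.4 kb (chr20:45012232-45014781) was called in all 4 lists. Its fold enrichment was 5.18 (2.99 to 8.46) without Dox and 14.2 (10.1 to 19.5), 16.6 (13.5 to 20.3) and 38.5 (33 to 44.6) after 24, 48 and 72 h. The value at 24 h was 2.75 times that without Dox, a ratio above 92.8% of the sites shared by those lists, and the intervals did not overlap. The 72 h value was 7.43 times that without Dox, above 95% of shared sites. The 72 h summit window of this site contained a run of 31 identical A or T bases, and 41.8% of its 32-base words occurred elsewhere in hg38. The part of such repeated sequence in the signal was not tested.

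The main STK4 promoter was weak, with a fold enrichment of 4.3 (2.94 to 6.08) at 72 h and no peak before. A stronger promoter peak lay at 94.9 kb, 2541 bp from an internal alternative TSS, with 6.09 at 48 h and 10.9 at 72 h. The intronic site at 75.2 kb had 5.2 at 24 h and 5.17 at 72 h and was missing at 48 h, and one at 72.3 kb had 5.76 at 48 h and 7.37 at 72 h. STK4 had 1, 2, 3 and 13 peaks at the 4 times, and 4 of those at 72 h lay at promoters of other genes, such as TOMM34 with 5.76.

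SAV1 encodes the scaffold that joins the MST and LATS kinases, and its upstream flank held a pair of sites. The nearer one, at -7.5 kb (chr14:50675267-50676434), had no peak without Dox and fold enrichments of 9.72 (6.66 to 13.7), 15.7 (12.5 to 19.4) and 27.7 (23.1 to 33) after 24, 48 and 72 h. The one at -9.41 kb had 8.02 (5.99 to 10.5) at 48 h and 13.6 (10.4 to 17.4) at 72 h. At -7.5 kb the 72 h interval lay above both earlier ones, and at -9.41 kb the intervals at 72 and 48 h overlapped slightly. The interval at -7.5 kb held no 7-letter TEAD word. Its CATTCC core lay 8 bp from the 72 h summit. The SAV1 promoter was bound at 72 h alone, with 9.09 (6.41 to 12.5) at the main TSS and 5.18 at -2.45 kb.

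MOB1A and MOB1B, the LATS co-activator genes, differed in the number of sites called before 72 h. MOB1A had a distal site at -58.2 kb, in an intron of SLC4A5 (chr2:74236567-74237822), with fold enrichments of 6.52 (4.78 to 8.71) at 48 h and 24.4 (20.6 to 28.8) at 72 h. This ratio of 3.74 was the highest of the 27 member sites shared by these lists and above 93.5% of all shared sites. Of the 32-base words around its summit, 66.5% occurred elsewhere in hg38, and their part in the signal was not tested. Another site, at the MTHFD2 promoter at -9.58 kb, had a fold enrichment of 6.77 in cells without Dox, with 5.87 and 9.34 after 48 and 72 h and overlapping intervals. MTHFD2 encodes a mitochondrial enzyme of folate metabolism, and its TSS is the nearer one. The MOB1A promoter had 6.95 (4.92 to 9.55) at 72 h alone.

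All 5 peaks near MOB1B were called at 72 h alone. The promoter had a fold enrichment of 5.76 (3.63 to 8.75), and its distal sites at -3.62 and 13.3 kb had 5.35 and 4.26. The others lay at the promoters of DCK, a nucleoside kinase gene, with 7.21, and of GRSF1, with 4.88.

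NF2, the gene of the adaptor merlin, was bound within its introns before its promoter. The site at 18.7 kb (chr22:29621376-29623084) had fold enrichments of 11 (7.61 to 15.4), 19 (16 to 22.4) and 22.1 (18.3 to 26.5) after 24, 48 and 72 h. The interval at 48 h lay above that at 24 h and overlapped that at 72 h. The site at 23.1 kb, whose sequence is printed with a TEAD word 10 bp from the 72 h summit, had 5.14 (3.42 to 7.44) at 48 h and 10.8 (7.95 to 14.3) at 72 h. The strong site at 18.7 kb held no TEAD word within 100 bp of its summit, and the nearest in the interval was 450 bp away. At 24.7 kb a weak peak with a fold enrichment of 4.07 from 12 fragments was called without Dox and in no other list. It was the only one of the 89 regions missing from the 72 h list. The promoter was bound at 72 h alone, with 8.04 at -2.01 kb and 3.74 (2.49 to 5.42) at the main TSS.

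MAP4K4, a kinase gene that can act upstream of LATS, was bound mainly inside the gene. Its main promoter had a fold enrichment of 3.33 (2.22 to 4.83) at 72 h, the weakest main promoter of the members. An intronic peak at 126 kb (chr2:101823600-101824460) had 5.31 (3.41 to 7.91) at 48 h and 12.8 (9.83 to 16.4) at 72 h. A second one at 130 kb had 6.6 at 72 h. Their 72 h summits lay 1220 and 2076 bp from an internal TSS, so they count as promoter peaks by the 3 kb rule. Both held the TEAD words printed above, 13 and 10 bp from the 72 h summits (offsets -13 and -10). The distal sites at -67.3, 66.1 and 108 kb had 6.23, 7.79 and 7.04 at 48 h, and 16.6, 18.5 and 15.5 at 72 h. At these 3 sites the 72 h intervals lay above those of 48 h, while the intronic site at 69.5 kb had 4.35 and 4.42. MAP4K4 had no peak within 100 kb without Dox or at 24 h.

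TAOK1, another upstream kinase gene, had the weakest of the members' strongest promoter peaks at 72 h. It had a fold enrichment of 4.77 (3.31 to 6.68), and 17.8% of the genes with a promoter peak had a weaker one. The other 6 peaks, all at 72 h, lay at promoters of other genes. That of NUFIP2 had 8.96, and those with ANKRD13B as the nearest protein-coding gene had 3.7, 6.07 and 5. No distal peak was called within 100 kb at any time.

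STK3 (MST2), on chromosome 8, had the longest window, 755 kb for 19 TSSs, and the most peaks of the members at 48 and 72 h. It had 2, 2, 8 and 15 peaks at the 4 times, more than 88.9%, 95.5%, 99.1% and 95.8% of all genes. Its main promoter had a fold enrichment of 5.87 (3.45 to 9.44) without Dox and 5.78 (3.59 to 8.86) at 72 h, and no peak at 24 or 48 h. The intronic site at -9.44 kb (chr8:98834546-98835747) had 9.26 (6.01 to 13.7), 8.64 (6.53 to 11.2) and 22.7 (18.5 to 27.6) after 24, 48 and 72 h. The promoter values lay within each other's intervals, while the 72 h interval of the intronic site lay above both earlier ones. A site at 467 kb had 10.4 at 48 h and 16.9 at 72 h, and one at 485 kb had 7.69 at 24 h and 10.3 at 72 h, both in intergenic sequence downstream of the gene. The promoter of VPS13B-DT, at -187 kb, had 15.8 (12.3 to 19.9) without Dox and 11.5 (8.65 to 15) at 72 h, the highest value of any member region without Dox.

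**Figure D4:**
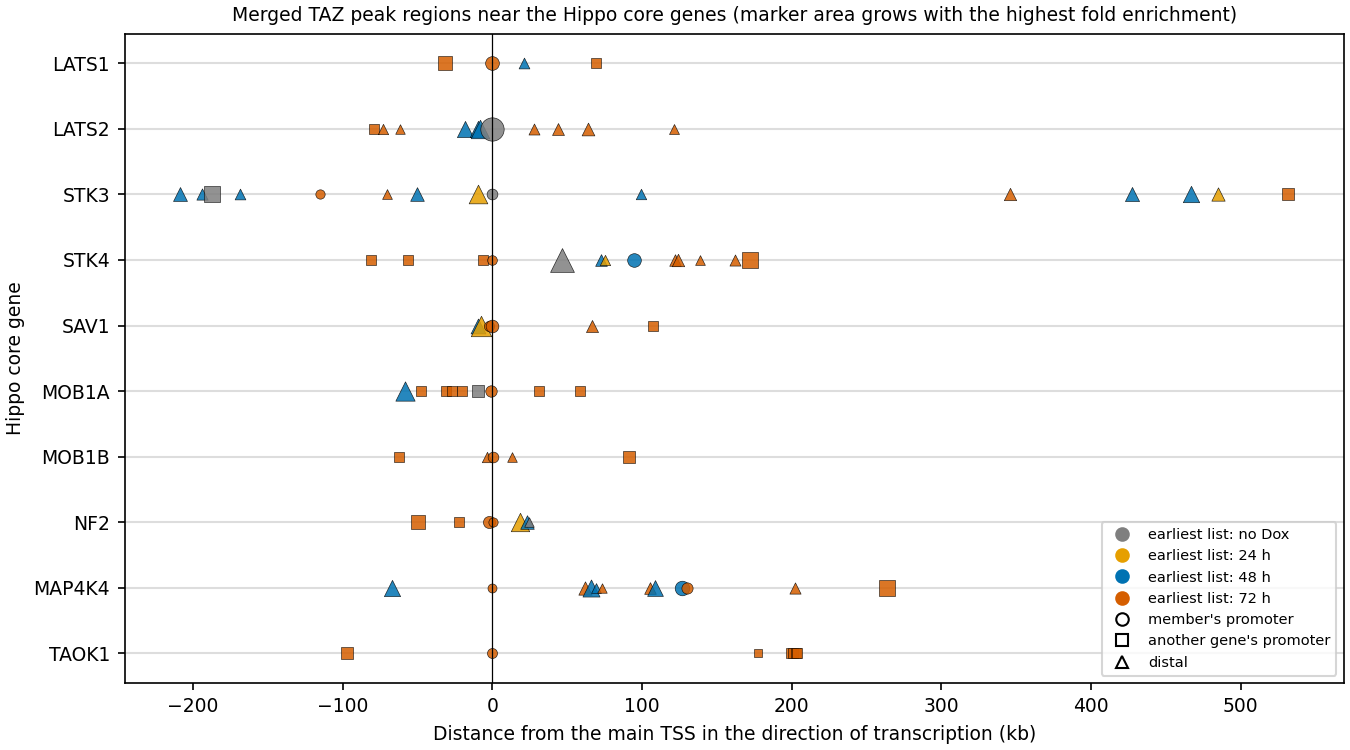
Each of the 89 merged regions by distance from the main TSS of its gene in kb, in the direction of transcription, 1 row per Hippo core gene. Colour gives the earliest list with a peak, shape the kind of site, and the marker area grows with the highest fold enrichment. Most markers (57) are first seen at 72 h, and the rows of MOB1B and TAOK1 hold no other colour.

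Peaks near the members were mostly those of the 72 h list, and peaks once called with Dox were mostly called again later, as over the genome. Of the 89 regions, 57 (64%) were called at 72 h alone, against 66.5% of all regions, 21 (23.6%) at 48 and 72 h, against 21.2%, and 3 (3.37%) at 24, 48 and 72 h, against 4.52%. All 7 peaks of the 24 h list were found again at 72 h and 5 of them at 48 h, and all 27 of the 48 h list were found again at 72 h. Over the genome, 2365 regions were shared by the 24 and 72 h lists, with 2469 peaks at 24 h. The 48 and 72 h lists shared 10978 regions, with 11767 peaks at 48 h, so such recurrence was general and not particular to the members. Of the 6 peaks without Dox, 2, 3 and 5 recurred in the lists of 24, 48 and 72 h. When the overlap had to cover 50% of each of the intervals, 2 of the 7 peaks of 24 h recurred at 72 h, and all 7 had a 72 h summit within 200 bp.

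Distal regions of the members were shared between 48 and 72 h more often than distal regions in general, 19 of 45 (42.2%) against 28.2%, and 72 h alone held 19 (42.2%), against 60.3%. This difference was not tested, and the regions were clustered by locus. Of the 23 distal peaks at 48 h, 8 lay near STK3, 4 near MAP4K4 and 3 near LATS2. At the members' own promoters 12 of 16 regions (75%) were called at 72 h alone, against 74.6% of all promoter regions. Near other genes' promoters this was 26 of 28 (92.9%). The regions of the 72 h list alone had a median fold enrichment of 5.8 (2.95 to 14.9), and the 31 regions shared with an earlier list had 11.9 (4.42 to 38.5) at 72 h.

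Near the members the peak density was 1.98, 2.31, 8.9 and 29 per Mb at the 4 times, over 3.03 Mb, against 0.784, 0.792, 3.8 and 12.5 per Mb in the genome, which includes gene-poor sequence. The median member had 0.5, 0.5, 2 and 8 peaks, against 0, 0, 1 and 5 for the median protein-coding gene.

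At sites called in successive lists the later fold enrichment, with its pseudocount of 1, was mostly the higher one. From 48 to 72 h, 26 of 27 member sites had a higher value at 72 h, with a median ratio of 1.79 (0.911 to 3.74), against 1.88 over 10978 sites of the genome. The exception was the intronic STK3 site at 99.5 kb, with 4.98 at 72 h and 5.46 at 48 h. The ratio of 72 h to 24 h had a median of 2.16 over 7 sites, with 6 higher, against 2.82 over all shared sites, and that of 48 h to 24 h had 1.17 over 5 sites, with 4 higher, against 1.45. The lowest background was 1.42 fragments at 24 h and 2.84 at 48 h, so the pseudocount weighs unequally on these lists. Without it the LATS2 promoter had 24.9 at 24 h and 23.7 at 48 h. The ratios of the other sites were not computed without it, so the direction from 24 to 48 h is uncertain. The ratio of 24 h to no Dox had a median of 2.21 over 2 sites, both higher, against 1.33, and that of 48 h to no Dox had 1.91 over 3 sites, with 2 higher, against 1.6. The members' medians thus lay below those of the lists between the times with Dox, and above them in these ratios to no Dox, which rest on 2 and 3 sites. At 72 h over no Dox the median was 1.38 over 5 sites, with 3 higher, against 1.84.

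**Figure D5:**
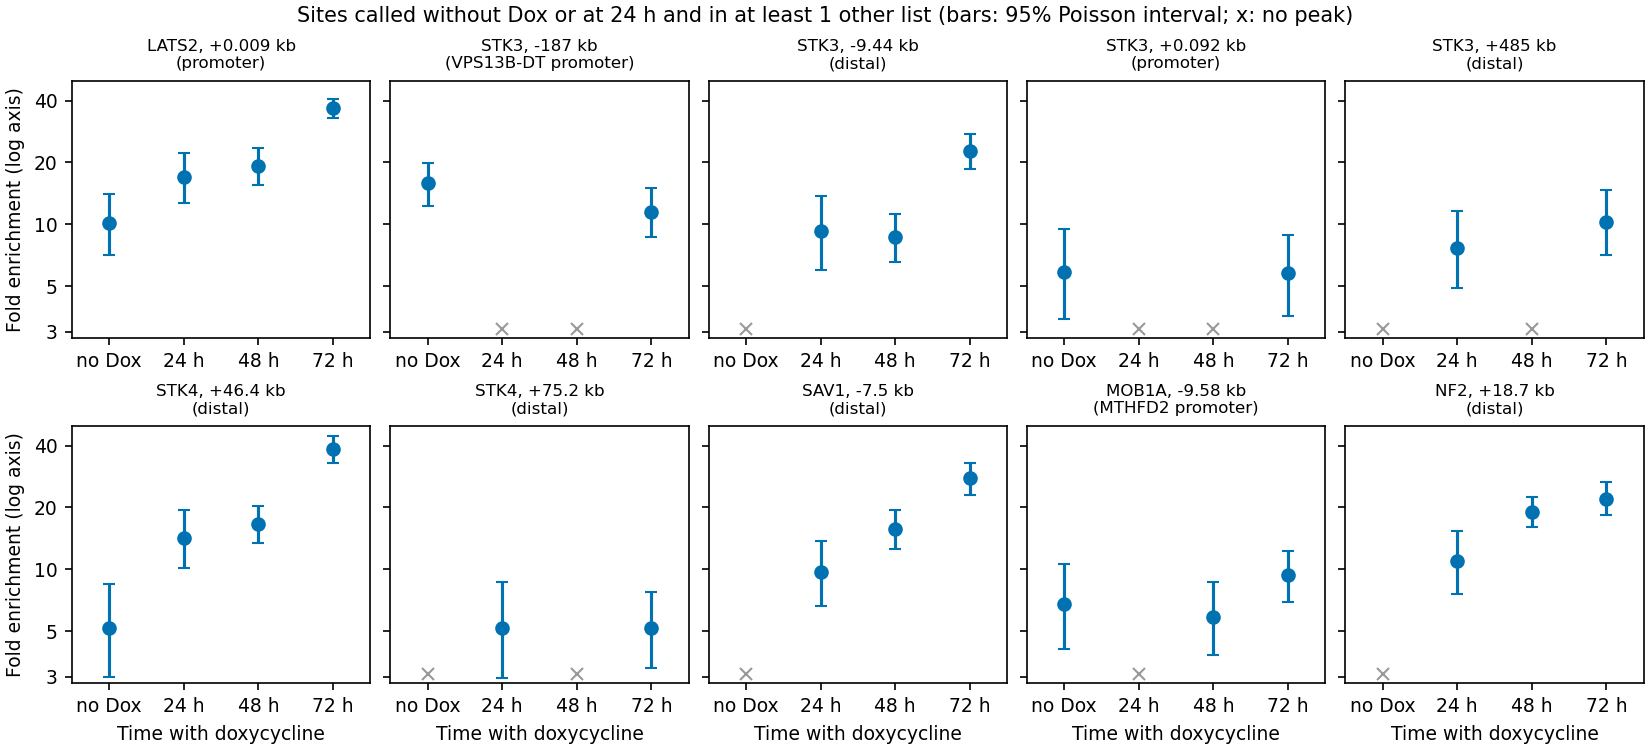
Fold enrichment (logarithmic axis) at the 10 member regions called without Dox or at 24 h and again in another list, with bars for the 95% Poisson interval and a grey x where no peak was called. The LATS2 promoter, the STK4 site at 46.4 kb and the SAV1 and NF2 distal sites are higher at 72 h than at 24 h, with intervals that do not overlap, while the STK3 promoter has 5.87 without Dox and 5.78 at 72 h.

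The TEAD words stood close to the summits of a minority of the member sites. Within 100 bp of the summit, on both strands, ACATTCC or GCATTCC was found in 9 of 44 distal peaks at 72 h (20.5%, exact binomial interval 9.8 to 35.3), against 35.1% of all distal peaks of that list, which lies inside the interval. At 48 h it was found in 4 of 23 (17.4%, 4.95 to 38.8), against 42%, which lies above it. With the 6-letter core CATTCC in place of these words it was found in 8 of 23 at 48 h (34.8%, 16.4 to 57.3), against 50.6%, which lies inside the interval, and in 12 of 44 at 72 h (27.3%, 15 to 42.8), against 44%, which lies above it. The position of the list share relative to the interval thus changed with the word at both times. These intervals take peaks as independent, while 8 of the 23 peaks at 48 h lay near STK3 and 4 near MAP4K4. They may thus be too narrow, and they serve as description, not as a test. In windows 1000 bp to either side of all distal summits the share was 5.37% at 72 h. Within 200 bp of the summit the shares of the members and the list at 72 h were 34.1% and 41.2%. At 48 h they were 21.7% (7.46 to 43.7) and 48.4%, and the list share again lay above the interval. At the members' own promoters 4 of 16 peaks (25%) held a TEAD word at 72 h, against 18.2% of promoter peaks, and these were those of LATS2, MOB1A and the 2 internal ones of MAP4K4. Over the whole peak intervals 32 of 89 regions had at least 1 TEAD word, and the share over all regions was not counted.

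AP-1 words, TGACTCA or TGAGTCA, are bound by FOS and JUN factors, which often share sites with TEAD. They were found in 6 of 44 distal member peaks at 72 h (13.6%, 5.17 to 27.4), against 20.8% of the list. At the members' promoters they were found in 0 of 16, which allows a share of up to 20.6%, against 9.9% of promoter peaks of the list. RUNX words, TGTGGT or TGCGGT, were found in 11 of 44 (25%), against 24.4%. The ETS word CCGGAA was found in 1 of 16 member promoter peaks (6.25%, 0.158 to 30.2), against 17.2%, and the YY1 word AAGATGGC in 0 of 88 member peaks, which allows up to 4.11%, against 1.43% of the list. A TEAD or an AP-1 word was present at 15 of 45 distal regions, and the share over all distal regions was not counted. At its 72 h summit (45012937) the STK4 site at 46.4 kb had a RUNX word 2 bp away and its nearest TEAD word 102 bp away (offset -102). Without Dox and at 24 and 48 h the summits lay at 45013074, 45013115 and 45013056, farther from both words. This TEAD word, at 45012832 to 45012838, lay outside the interval without Dox, which began at 45012843. The NF2 site at 23.1 kb had a RUNX word 11 bp from its 72 h summit.

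The members' promoter peaks were rich in G and C, with a median of 71.9% in the summit window at 72 h, against 61.7% for all promoter peaks of the list. Distal member peaks had 43%, against 45.3%. Their median width at 72 h was 946 bp, against 758 bp. In 70 of the 89 regions no 32-base word of the summit window recurred in hg38, and in 9 more than 20% did.

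Genes whose promoter signal was most like that of LATS2 over the 4 conditions were LAMC1, ESRP2 and ARHGEF17, by the Euclidean distance of log2 fold enrichment among 173 genes with a promoter peak in all 4 lists. LAMC1, a laminin chain gene, had fold enrichments of 8.82, 17.2, 19.9 and 47.3 and lay closest, at 0.417 on the log2 scale. ESRP2, an epithelial splicing regulator, had 10.7, 18.6, 23.5 and 47.2 (0.489), and ARHGEF17 had 11.6, 14, 16.8 and 54.6 (0.696).

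At the edge of the 100 kb window the last regions inside were those of STK3 at 94267 bp, with a fold enrichment of 6.77, and TAOK1 at 97305 bp, with 8.96. Just outside lay peaks at 100437 bp from MAP4K4, with 4.6, at 101893 bp from TAOK1, with 8, and at 104604 bp from STK4, with 8.91, all at 72 h. A site 105432 bp from MAP4K4 at 72 h, closer to IL1R2, had fold enrichments of 5.63, 12.2 and 20 after 24, 48 and 72 h and was left out, so the absence of a MAP4K4 peak at 24 h holds within the window.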

How the data were processed

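TAZ ChIP-seq was done in MCF10A cells without Dox and at 24, 48 and 72 h. According to the study's methods and the submitters' processing notes, reads were trimmed, mapped to hg38 with BWA, and MACS2, run within the ChiLin pipeline, called peaks for each condition (false discovery rate 0.01). The sources used here give no versions of BWA and MACS2 and do not say whether IgG was the control. Total reads are not in the lists. The deposited lists give the authors' fold enrichment as a ratio (pseudocount 1), and −log10 of the p-value and of the q-value per peak.

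The 10 members and all lists were chosen with earlier results of these data known. Summits were annotated against GENCODE version 44 (Python 3.11.15, pandas 2.3.3, scipy 1.17.1, pysam 0.24.0). Fragments were solved from fold enrichment and p-value (largest difference 0.00228 on the −log10 scale). In a test on 2000 simulated peaks 100% were recovered. Lists were merged by an overlap of at least 1 bp. Motif windows were 201 bp. Libraries were grouped by their titles. All members may be named, genes at a member's peaks, the 3 genes most like LATS2, and the 3 strongest promoters of each other list. The alternatives were other promoter widths, windows, TSS sets, thresholds, thinned lists, overlaps and motif windows. There is 1 library per condition and antibody, so no test between times was made. No column of another series was present (0).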

Additional observations from a re-analysis of the deposited data

How the results depend on the processing

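No paired analysis was possible because each condition has 1 TAZ library and no replicate number. Of 96 alternative values of the main results 85 stayed within the limits set for a change. For counts the limit was a fixed ratio to the reported value, and for fold enrichments and motif shares it was the reported interval. Some limits were so wide that a value could hardly leave them. The TEAD share of the 2 distal peaks without Dox, for example, had an interval of 0 to 84.2%. With a promoter half-width of 1 kb, with protein-coding transcripts alone, or with the main TSS alone, 1 member in place of 3 had a promoter peak at 48 h. With a −log10 q of at least 5, 1 in place of 2 had a distal peak without Dox. With peaks nearest to the member alone, 47 in place of 88 counted at 72 h. With an overlap of 50% of both intervals, 2 of 6 peaks without Dox (not 5) and 2 of 7 at 24 h (not 7) were found at 72 h, and 2 of 7 at 24 h (not 5) at 48 h. Without the pseudocount the LATS2 promoter had 13.8, 24.9, 23.7 and 41.2 at the 4 times, in place of 10.1, 17, 19.2 and 36.7. The order of its values at 24 and 48 h thus depended on the pseudocount. The median strongest promoter peak of the members was, with a half-width of 1 kb, 19.2 in place of 6.09 at 48 h, where LATS2 alone was left, and 5.77 in place of 8.57 at 72 h. The main TSS and the CATTCC core were alternatives chosen after seeing the data. With that core, 34.8% and 27.3% of distal member peaks at 48 and 72 h held a word, against 50.6% and 44% of the lists. Thinned to the lowest background and held to a −log10 p of 5.27, the lists gave 6, 7, 27 and 85 peaks near the members. Depth limits what can be called: at the lowest background of the 24 h list a peak needed a fold enrichment of at least 4.14.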

Other observations

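Other genes of the pathway were counted from lists made for this purpose. Of 44 such genes, 7, 7, 12 and 37 had a promoter peak and 7, 14, 26 and 38 a distal peak within 100 kb in cells without Dox and after 24, 48 and 72 h. Of all protein-coding genes, 9.4%, 2.55%, 9.09% and 58.4% had a promoter peak and 7.47%, 12%, 41.4% and 69.5% a distal peak at these times. Among the effectors, which hold the TEAD, YAP, TAZ and angiomotin genes, promoter peaks were found at 3, 3, 5 and 9 of 10. The highest at 72 h were at TEAD1, a DNA-binding partner of TAZ, with fold enrichments of 6.76, 20.1, 26.4 and 88.6 over the 4 conditions, AMOTL2, with 8.09, 14.2, 21.8 and 61.3, and TEAD4, with 16.1 at 24 h and 48 at 72 h. Upstream scaffolds had promoter peaks at 3, 4, 4 and 6 of 9 genes, the highest at WWC2, with 6.3, 11, 10.6 and 71.5, PTPN14, with 63.2 at 72 h, and WWC1 (KIBRA), with 8.23, 17.8 and 40.7 at 24, 48 and 72 h. The 72 h values at these 6 promoters lay above the 36.7 of LATS2, the highest of the core genes.

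The STRIPAK complex, a phosphatase complex that acts on the MST kinases, had promoter peaks at 0, 0, 3 and 11 of 12 genes, to be read against the same shares of all genes. SLMAP, its link to the MST kinases, had 6.62 at 48 h and 20 at 72 h, STRN had 16.9 and MOB4 had 12, both at 72 h. The MAP4K relatives of MAP4K4 had promoter peaks at 0, 0, 0 and 5 of 6 genes, led by TNIK with 6.4, MAP4K3 with 5.84 and MINK1 with 5.46, and distal peaks near 0, 2, 5 and 6. The TAO kinases TAOK2, with 3.86, and TAOK3, with 8.54, and the NDR kinases STK38, with 3.51, and STK38L, with 9.85, had promoter peaks at 72 h alone. Of the other MST partners, RASSF1 had 4.93 without Dox and 5.78 at 72 h, RASSF5 had 4.76 at 72 h, and RASSF2 had none. No test was made between these lists.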
